A study of Mus musculus with 20 samples.

Results

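The 20 whole hearts of the series were ordered by the mean of log2(normalised value + 1) over 5 genes, Epcam, Cdh1, Nkx2-1, Foxa2 and Tbx4, and the 5 hearts chosen by the lowest mean (the 5-gene score) were set beside the other 15. The question is which other transcripts came and went with these 5, which mark embryonic epithelium and the lung bud and not the heart wall. The values that chose the hearts came from the same libraries, so every difference between the 5 and the 15 is given as a description, with no test.

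The study compared hearts of mouse models of Down syndrome with wild-type (WT) littermates by RNA sequencing at stage E13.5 of embryonic life. The groups were 5 Dp3Tyb hearts, 5 WT hearts of the Dp3Tyb cohort, 5 Ts1Rhr hearts and 5 WT hearts of the Ts1Rhr cohort, 1 cohort being a strain with its own littermates. Dp3Tyb and Ts1Rhr mice each carry 1 extra copy of a stretch of mouse chromosome 16 in all cells, and all 4 groups were kept on a C57BL/6J background. The labels name heart defects for all 5 Dp3Tyb hearts and for Ts1Rhr replicates 1 and 2, and none for Ts1Rhr replicates 3, 4 and 5. The study describes Ts1Rhr embryos as free of such defects, so the labels of Ts1Rhr replicates 1 and 2 conflict with it, and all 5 Ts1Rhr hearts were kept as a group by genotype. Hearts were dissected and snap frozen, and no source used here states how much neighbouring tissue stayed on each. The labels do not say that the 5 hearts of a group came from separate litters, so p-values cover the spread between these hearts.

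In the mouse embryo the lung and trachea bud from the foregut, which lies directly behind the heart. Nkx2-1 is the transcription factor of the respiratory endoderm, Foxa2 acts across the foregut endoderm, Epcam and Cdh1 hold epithelial cells together, and Tbx4 is a transcription factor of the lung mesenchyme. The endoderm secretes Sonic hedgehog (Shh) to the mesenchyme around it, where Gli1, Hhip and Foxf1 are among the responding genes.

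The low hearts, in order of rising score, were Ts1Rhr replicate 3 (0.817), WT replicate 4 (1.27) and WT replicate 2 (1.39) of the Dp3Tyb cohort, Ts1Rhr replicate 1 (1.68), and WT replicate 5 of the Dp3Tyb cohort (2.10). Values of the 5 are given in this order throughout. The next heart, Dp3Tyb replicate 1, stood at 4.09, and the other 15 ran up to 6.63 in Dp3Tyb replicate 4 with a median of 5.70. The gap of 1.99 between the last heart inside and the first outside was wider than any other gap between neighbours, of which the widest was 0.669. Thus 3 of 5 WT hearts of the Dp3Tyb cohort and 2 of 5 Ts1Rhr hearts were low, with 0 of 5 in each of the other groups, and a difference adjusted for genotype group draws on the contrast within these groups.

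**Figure D1:**
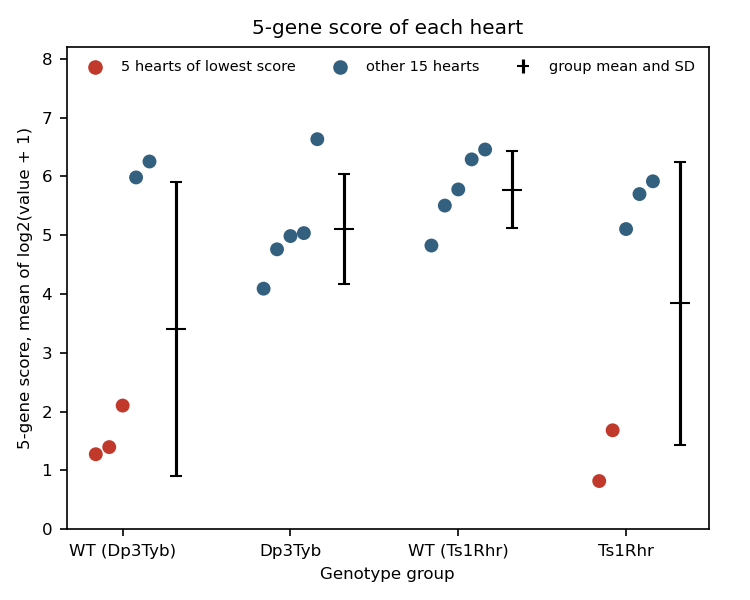
The 5-gene score (mean of log2(normalised value + 1) over Epcam, Cdh1, Nkx2-1, Foxa2 and Tbx4) of each of the 20 hearts by genotype group, with the group mean and SD beside the points. The 5 hearts of lowest score lie between 0.817 and 2.10, and the other 15 between 4.09 and 6.63.

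The 5 genes of the score were near 0 in the low hearts, as the choice fixes. Nkx2-1 had 1 read over the 5 hearts and stood at 10.2 to 56.1 (median 19.5) in the other 15. Foxa2 had 3 reads over the 5 and stood at 14.1 to 74.6 (median 30.3) in the others. Epcam read 7.99, 2.99, 2.28, 2.40 and 20.6, so that the last of these exceeded the lowest of the other 15 (17.0). That heart, WT replicate 5, was also the shallowest library, with 6.60 M reads and 19.5% of them from mitochondrially encoded genes.

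The other low hearts held 13.6 to 19.3 M reads, and the 15 held 9.50 to 19.6 M reads. The mitochondrial share was 5.30% to 19.5% (median 5.50%) in the 5 and 4.85% to 17.2% (median 6.12%) in the 15. Neither measure separated the sets.

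The lung bud label was set beside markers outside the score, which do not decide it. Shh, Foxa1, Wnt7b and Foxf1, all of the developing respiratory tract, were present in each of the 15 hearts. Genes for surfactant, which distal lung epithelium makes, were mostly at or near 0 in these E13.5 hearts. No lung sample of this stage was measured, so what a lung bud would show for them was not tested. Sftpd, Slc34a2 and the secretory gene Scgb1a1 had 0 reads in all 20 hearts. Sftpb was at most 1.45, Sftpc at most 3.62 and Sftpa1 at most 6.78 in any heart. Scgb3a2, a secretory gene of the airway, was at most 2.99 in the 5 and reached 8.59, 9.72, 11.3 and 16.1 in 4 of the other 15. Abca3, a lipid transporter of surfactant-making cells, was present in every heart at 411 to 701 in the 5 and 450 to 674 in the 15. Sox9, Id2, Etv5 and Bmp4, which distal lung tips express and heart tissue expresses too, differed by -0.04, 0.03, -0.02 and -0.20 (log2) between the sets. The hearts are therefore called here by their 5-gene score, and not by a cell type.

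A gene was called where the genotype-adjusted difference between the sets was at least 1 on the log2(value + 1) scale (2-fold) and no value of the 5 overlapped those of the 15. Of 15343 genes that reached 10 in 5 or more hearts, 87 were called lower in the 5 (0.567%) and 0 were called higher (0%). The median difference of the 87 was -2.51, and 57 of them were at -2 or below. Over all genes measured the median difference was 0.01, with 7425 of 15343 below 0 and 7918 above. Counts called in the gene lists below stand beside the 0.567% over all genes, and 0 called in a short list is near that share. Without the overlap condition, 372 genes were at -1 or below and 37 at 1 or above. Fewer cells of a type and less RNA per cell cannot be told apart in whole hearts.

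The filter bears on this count. A gene absent from the 5 hearts could pass it only through the other 15, and 38 of the 87 stayed under 10 in every low heart. In the opposite direction, 64 of the 87 reached 10 in all of the other 15. Of the 87 genes, 26 belonged to a gene list used here and 61 to none.

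**Figure D2:**
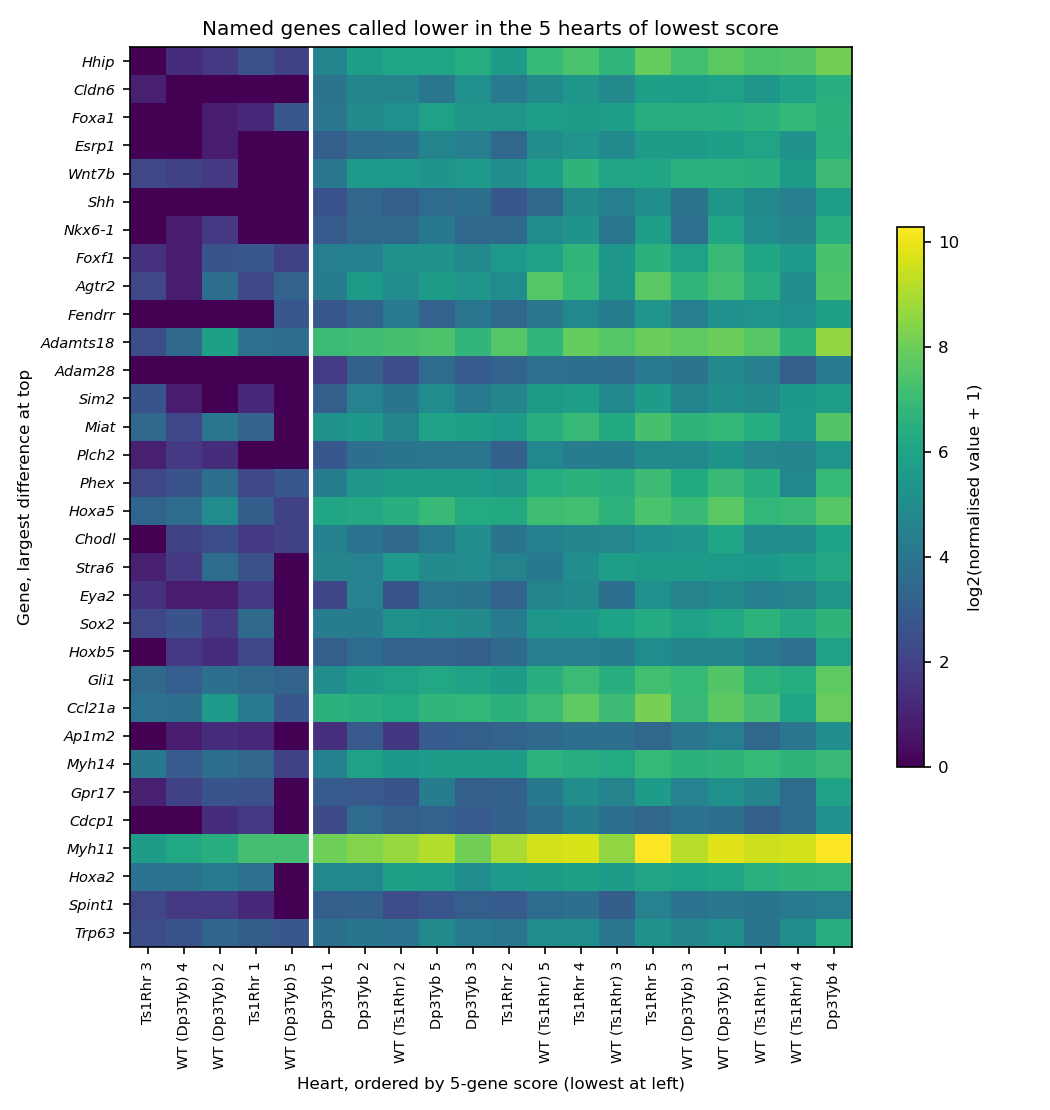
Levels, as log2(normalised value + 1), of 32 genes called lower in the 5 hearts (rows, largest difference at the top) in each of the 20 hearts (columns, ordered by 5-gene score). The white line separates the 5 hearts of lowest score from the other 15, and Hhip spans 0 to 4.79 on its left and 23.8 to 275 on its right as normalised values.

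On the log2(value + 1) scale, genes of the Shh pathway ranged from the largest difference of all called genes to almost none. Shh itself (ENSMUSG00000002633, chromosome 5, 28456840 to 28467101 in GRCm38.p6) had 0 reads in all 5 low hearts and stood at 5.11 to 51.4 (median 14.7) in the other 15. Against the limit that 3 reads over the 5 hearts would set, it was at least 33.6-fold lower in the 5, and this bound covers counting error only. Hhip, which binds Shh at the cell surface and lies on chromosome 8 (79965850 to 80058060), read 0, 1.50, 2.28, 4.79 and 2.94 in the 5 and 23.8 to 275 (median 118) in the others, a log2 difference of -5.73 ± 0.57 (SE). No called gene had a larger difference on the log2(value + 1) scale, which limits the difference of genes near 0 reads.

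Gli1, a transcription factor switched on by Shh (chromosome 10, 127329882 to 127341579), kept reads in every low heart. It read 10.7, 7.48, 12.9, 10.8 and 8.81 there and 31.5 to 212 (median 86.9) in the other 15, a log2 difference of -3.44 ± 0.39. Ptch1, the Shh receptor and itself a Shh target, read 636 to 828 in the 5 and 643 to 992 in the 15, with a log2 difference of -0.19. The ranges of Ptch1 overlapped, and 4 of the 15 hearts lay above every low heart.

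Wnt7b, a Wnt ligand of the lung epithelium, read 3.55, 2.99, 2.28, 0 and 0 against 16.2 to 133 (median 54.2), a log2 difference of -5.08 ± 0.51. Rspo2, which strengthens Wnt signals, was the fifth called member of the list of branching signals, at 9.77 to 40.4 against 44.5 to 132. Fgf10, the mesenchymal growth factor of lung branching, overlapped at 10.8 to 29.4 against 21.1 to 59.9 and was not called. Of 24 signals measured, 5 were called lower and 0 higher, and the list median was -0.46. The summed level of the 24 did not overlap between the sets, at 5355 to 5576 in the 5 and 5688 to 7363 in the 15.

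Among transcription factors of the lung endoderm, Foxa1 and Sox2 were called, out of 16 measured with a list median of -0.27. Foxa1, a partner of Foxa2 in foregut endoderm (chromosome 12, 57540628 to 57548029), read 0, 0, 0.761, 1.20 and 5.87 against 15.3 to 115 (median 54.2), a log2 difference of -5.23 ± 0.51. Sox2, which marks the proximal airway and the oesophagus, read 3.55, 5.23, 2.28, 10.8 and 0 against 17.6 to 102 (median 43.8), a log2 difference of -3.51 ± 0.58. Sox21, another Sox factor, differed by -3.25 ± 0.51 with overlapping values and was not called.

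Some epithelial junction genes were near 0 in the low hearts, and others were present in every heart. Cldn6, a tight junction protein of embryonic epithelium (chromosome 17, 23679348 to 23682446), had 1 read over the 5 low hearts and stood at 14.5 to 88.3 (median 34.7) in the others. The mean of the 15 was 194 times the pooled value of the 5 (1 read over their summed size factors), with a 95% counting interval of 34.8 to 7665. Esrp1, which directs epithelial splicing, also had 1 read over the 5 and stood at 7.66 to 91.9, a mean 177 times the pooled value of the 5 (31.7 to 6985).

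Ap1m2, which sorts membrane proteins in epithelial cells, Spint1, a protease inhibitor, and Cldn3, another claudin, were called too, so that 5 of 32 measured members were lower. The keratins Krt8 and Krt18 were not: Krt8 stood at 70.5 to 140 in the 5 and 111 to 295 in the 15, and Krt18 at 224 to 276 and 205 to 285. The list median was -0.27. Markers of the epicardium and mesothelium, an epithelium of the heart's own surface, showed 0 called of 11 and a median of -0.05. At 0.567% called over all genes, 0 of 11 is near the background.

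**Figure D3:**
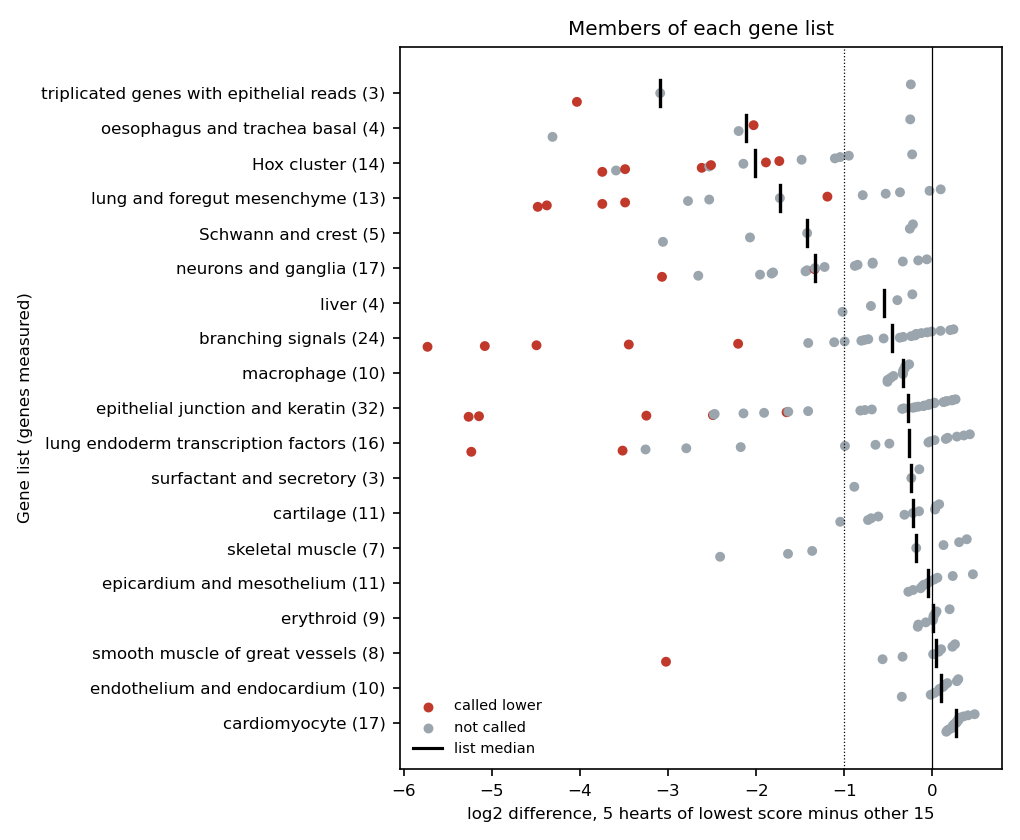
The log2 difference (5 hearts of lowest score minus the other 15, adjusted for genotype group) of each measured member of each gene list with 3 or more measured members. Bars mark list medians, which run from -3.09 in the 3 triplicated genes to 0.27 in the 17 cardiomyocyte genes, and the dotted line marks the call limit of -1.

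Among mesenchymal transcription factors of the foregut, 5 of 13 measured were called, with a median of -1.73, and the called members Hoxa5 and Hoxb5 are counted again among the Hox genes. Foxf1, which Shh induces in foregut mesoderm, read 1.78, 0.748, 5.33, 5.99 and 2.94 against 20.4 to 159 (median 45.9), a log2 difference of -4.37 ± 0.49. Nkx6-1 read at most 2.28 in the 5 and 6.81 to 89.0 in the others. Osr1, a regulator of foregut and kidney mesoderm, had the smallest called difference of the list, with 183 to 270 against 355 to 663. Tbx5, which acts in the heart itself, differed by 0.09.

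Foxf1 and its neighbour, the long non-coding RNA Fendrr, both stood among the 87. On chromosome 8, Fendrr (121054882 to 121083110) ends 1276 bases before Foxf1 starts (121084386 to 121088154) in GRCm38.p6. Fendrr had 0 reads in 4 low hearts and 2 reads, a value of 5.87, in WT replicate 5, against 5.96 to 57.2 (median 19.7) in the other 15. Whether the authors' counting used strand is not given in the sources used here, and the 2 spans as given do not overlap.

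The 250 bases before the transcript start that RefSeq's promoter table gives for each gene were searched for the forkhead motif TGTTTAC on both strands, since Foxa1, Foxa2 and Foxf1 are forkhead factors. RefSeq promoters were matched for 53 of the 87 genes, of which 2 held the motif (3.77%), against 956 of 27025 promoters of all genes (3.54%). The share among the called genes was thus near that of all promoters. The 2 promoters follow, 5′ to 3′ on the strand of the gene (both minus, GRCm38.p6), with the motif in capitals in its reverse complement GTAAACA. They are shown because both genes are forkhead factors or lie next to a forkhead factor.
Fendrr, chr8:121083111-121083360: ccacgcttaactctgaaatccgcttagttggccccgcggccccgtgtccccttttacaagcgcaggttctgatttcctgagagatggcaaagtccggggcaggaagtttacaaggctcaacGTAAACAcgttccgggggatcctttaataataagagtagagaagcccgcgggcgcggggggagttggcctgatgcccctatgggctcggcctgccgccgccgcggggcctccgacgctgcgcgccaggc
Foxa1, chr12:57546112-57546361: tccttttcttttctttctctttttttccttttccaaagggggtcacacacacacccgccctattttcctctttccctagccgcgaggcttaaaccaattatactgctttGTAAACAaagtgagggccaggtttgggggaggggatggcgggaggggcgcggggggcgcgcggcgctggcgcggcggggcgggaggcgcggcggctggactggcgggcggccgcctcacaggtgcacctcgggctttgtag
For Foxa1 the promoter table takes the start of a transcript that begins inside the gene span given above, so the stretch lies within that span. In Fendrr 122 bases separate the motif from the transcript start, and in Foxa1 134 bases do. A match of letters is a description and shows no binding.

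Hox genes, which set position along the body axis, were lower as a group by count. Of 14 measured, 6 were called, beside 0.567% of all genes. All 14 differences lay below 0, beside 7425 of all 15343 genes, and the median was -2.02. Without the filter on low values the median was -1.08. Hoxa5, needed for the lung mesenchyme and trachea (chromosome 6, 52201754 to 52204587), read 8.88, 12.0, 30.5, 7.19 and 2.94 against 67.3 to 201 (median 120), a log2 difference of -3.74 ± 0.42. Hoxb5 was at most 3.59 in the 5 and 7.63 to 58.6 in the others. Hoxa2, Hoxa3, Hoxb3 and Hoxc4 were the other called members, so that all 6 had paralogue numbers of 2 to 5.

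Of 39 Hox genes in the table, 25 did not pass the filter, and all of them carried numbers of 6 or above except Hoxb1 and Hoxd1. The summed level of all 39 was 237 to 371 in the 5 and 520 to 1353 in the 15. These sums did not overlap.

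Neuronal genes also lay below 0 throughout. All 17 measured did so (median -1.33), beside 7425 of all 15343 genes, and 2 were called, beside 0.567% of all genes. Nefl, a neurofilament subunit and a called gene, read 29.7 to 41.9 against 42.3 to 123, so that the sets were separated by a narrow margin.

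Phox2a, a factor of autonomic neurons, the receptor Ret and the acetylcholine receptor subunit Chrna3 overlapped, with differences of -2.66 ± 0.52, -1.96 ± 0.39 and -1.82 ± 0.43. In the 5 Schwann cell and neural crest genes measured, 0 were called, with a median of -1.42. Sox10, a factor of crest-derived glia, read 8.88, 20.9, 13.7, 24.0 and 2.94 against 18.7 to 76.5.

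Smooth muscle genes did not move as a list, but Myh11 stood out. Myh11, the smooth muscle myosin heavy chain on chromosome 16 (14194527 to 14292188), read 50.6, 71.8, 89.8, 153 and 147 against 261 to 1248 (median 584), a log2 difference of -3.02 ± 0.41. Every other heart exceeded every low heart. The remaining 7 members were not called, among them Des at 0.26 ± 0.07 and Eln at -0.34 ± 0.27, and the list median was 0.04. Actg2, a smooth muscle actin outside the lists, was called at 65.0 to 96.7 against 138 to 555.

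Of 4 basal cell genes of the oesophagus and trachea measured, 1 was called. This was Trp63, which read 4.44, 5.23, 9.14, 7.19 and 5.87 against 12.8 to 84.0 (median 24.7), a log2 difference of -2.03 ± 0.42. Krt14, a basal cell keratin, overlapped at 14.2 to 20.4 against 8.39 to 27.8, a log2 difference of -0.25 ± 0.25. Krt15 and Krt5, keratins of basal cells, overlapped at 0 and varied widely within the 15 hearts, with SEs of 1.09 and 1.07. Krt15 stood between 84.9 and 110 in 4 hearts, namely WT replicate 5 of the Ts1Rhr cohort, Ts1Rhr replicate 5, WT replicate 1 of the Dp3Tyb cohort and Dp3Tyb replicate 4. It was 45.5 in Ts1Rhr replicate 4 and at most 8.64 in the remaining 15, the low hearts included. The score alone thus did not order this gene: WT replicate 4 of the Ts1Rhr cohort, with the second highest score, read 7.66.

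Among the 61 called genes in no list, the 15 with the largest differences ran from -4.34 in Agtr2 to -3.06 in Cdcp1. Agtr2, an angiotensin receptor of embryonic mesenchyme, read 3.55, 0.748, 11.4, 3.59 and 8.81 against 19.6 to 202 (median 47.7). Adamts18, a secreted protease, read 4.44, 10.5, 56.3, 13.2 and 11.7 against 97.6 to 381 (median 188). In WT replicate 2 of the Dp3Tyb cohort it was therefore higher than in any other low heart, and the same heart held the highest of the 5 values for Hoxa5 (30.5) and Ccl21a (45.7).

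Adam28, a membrane protease, had 0 reads in all 5 low hearts and stood at 2.55 to 26.7 in the others, at least 20.4-fold lower in the 5. Stra6, the receptor for vitamin A uptake, read 0.888, 2.24, 11.4, 4.79 and 0 against 17.0 to 72.4 (median 44.3). Ccl21a, a chemokine, has near-identical paralogues that can share its reads, so its difference of -3.39 ± 0.43 is uncertain. Others were Fendrr, Miat, Plch2, Phex, Chodl, Eya2, Myh14, Gpr17 and Cdcp1.

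The following 4 of the 61 were named after their values were seen. Tbx1, a factor of the pharyngeal arches, stood at 0 to 7.19 against 16.2 to 44.9, and Tfap2b, a neural crest factor, at 2.28 to 5.87 against 6.26 to 60.1. Gdf10, a secreted growth factor, stood at 32.3 to 69.3 against 120 to 447. The smallest called difference was that of Ephb2, an ephrin receptor, at 264 to 319 against 377 to 748.

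Heart genes lay slightly the other way. All 17 cardiomyocyte genes had a difference above 0, between 0.16 and 0.48 with a median of 0.27, and 0 were called. Their summed level was 518228 to 618459 in the 5 and 376209 to 561534 in the 15. Myh7, a ventricular myosin, read 158305, 133943, 137841, 143070 and 182684 against 88996 to 154010, so that the sets overlapped.

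Endothelial genes had a median of 0.10 and erythroid genes one of 0.01, with 0 called of 10 and of 9. At 0.567% called over all genes, these counts are near the background. All 10 macrophage genes lay below 0 (median -0.33), and 0 were called. The 6 genes higher in the 5 without overlap (0.0391% of those measured, against 126 or 0.821% lower without overlap) were Dennd5a, Pdhb, Usp28, Slc6a6, Alpk3 and Gm3739, with differences of 0.09 to 0.45.

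Lists for other neighbouring organs held 0 called genes of 25 measured, which at a share of 0.567% over all genes is near the background. The liver list had 4 measured members with a median of -0.55, cartilage 11 with -0.22, skeletal muscle 7 with -0.18, thyroid 2 with 0.16 and thymus and parathyroid 1 with 0.03. Single hearts nevertheless held transcripts of such organs. WT replicate 1 of the Dp3Tyb cohort read 931 for Myh3, 73.0 for Myog and 23.2 for Myod1, all of skeletal muscle, against at most 77.4, 24.6 and 10.9 in any other heart. Dp3Tyb replicate 4, the heart of highest score, read 79.6 for Pax1, 11.6 for Foxn1 and 95.5 for Krt5, genes of the pharyngeal pouches, thymus and basal epithelium, against at most 2.94, 0.808 and 18.5 elsewhere.

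The liver genes Alb and Afp did not follow the score. They were highest in Ts1Rhr replicate 2 (85.9 and 94.7) and Dp3Tyb replicate 2 (66.5 and 80.6), and WT replicate 2 of the Dp3Tyb cohort, a low heart, followed for Alb at 29.7. The median of Alb in the other 15 was 8.59.

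Each cohort was also taken alone, which was decided after the data were seen. Among hearts of the Dp3Tyb cohort, the 3 low ones against the other 7 gave 145 lower of 14758 genes (0.983%), and in the Ts1Rhr cohort the 2 low hearts against the other 8 gave 196 of 14862 (1.32%). They shared 80 genes, 55.2% of the first set and 40.8% of the second. Called higher were 1 gene (0.00678%) and 5 genes (0.0336%). The cohorts have no heart in common, though the same 5 score genes chose the low hearts in both. Of the genes called lower in the Dp3Tyb cohort, 132 of 135 measured in the Ts1Rhr cohort were below 0 there, with a median of -1.46. In the reverse direction 161 of 166 were below 0, with a median of -1.59. Over all genes measured the median was 0.0097 in the Ts1Rhr cohort and 0.000347 in the Dp3Tyb cohort. Because the same score split both cohorts, these counts are a description and no independent repeat.

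Of the 87 genes, 75 were measured in both cohorts, and the 2 differences of a gene lay 0.33 apart in the median, with a widest gap of 2.08. The 87 were called on the hearts of both cohorts together, with no low heart overlapping any other heart. Each was therefore lower in the low hearts of both cohorts by choice, and these gaps are no independent repeat. Hhip differed by -5.76 ± 0.76 among Dp3Tyb hearts and their littermates and -5.69 ± 0.76 in the Ts1Rhr cohort, and Foxa1 by -5.19 ± 0.84 and -5.27 ± 0.52. Sox2 had the widest gap, at -4.56 and -2.47, and Tbx1 stood at -3.60 and -1.97. Outside the 87, Myh3 differed by -4.11 ± 1.61 and -0.70 ± 0.56, and Afp by 0.85 ± 1.06 and -2.89 ± 0.91.

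**Figure D4:**
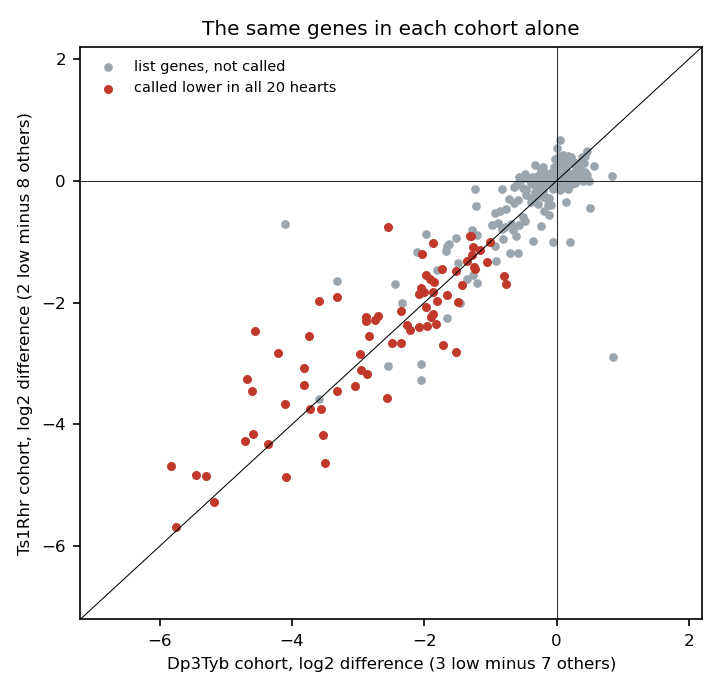
The log2 difference between low-score and other hearts within the Dp3Tyb cohort (x axis) and within the Ts1Rhr cohort (y axis) for the genes of the lists and the called genes, with the line of equal differences. Hhip lies at -5.76 and -5.69, and the list genes that were not called crowd around 0. The called genes were chosen on both cohorts together, so their place below 0 on both axes follows from the choice.

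By genotype, the score had a mean of 3.40 ± 2.50 (SD, n = 5) in WT hearts of the Dp3Tyb cohort and 5.10 ± 0.936 in Dp3Tyb hearts, a difference of 1.70. It was 5.77 ± 0.653 in WT hearts of the Ts1Rhr cohort and 3.84 ± 2.41 in Ts1Rhr hearts, a difference of -1.93. The score chose the low hearts, so these means are given with no test. In each cohort the values of the 2 groups overlapped.

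Because the low hearts sat in 1 group of each cohort, the genes of the score entered the genotype comparisons with opposite signs. Of the 87 genes, 76 were measured in the comparison of Dp3Tyb with WT, and all 76 differences (mutant minus WT) were above 0, with a median of 0.94. In the Ts1Rhr comparison 83 were measured, 0 were above 0, and the median was -0.68. These signs follow from which groups held the low hearts and are no separate result. In limma's test 0 of the 76 and 0 of the 83 were called (adjusted p threshold of 0.05), against 8 of 14763 genes (0.0542%) and 4 of 14867 (0.0269%) called in all. The low hearts that chose these genes sat in 1 group of each cohort, so counts called among them are no test of genotype. At an unadjusted p under 0.05 in limma's test there were 413 of all 14763 genes and 821 of all 14867. On recovered reads, edgeR and DESeq2 also called 0 of either set. The medians were smaller there, at 0.51 and 0.54 in the Dp3Tyb comparison and -0.24 and -0.26 in the Ts1Rhr comparison, and 11 of the 83 genes were above 0 with either tool.

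**Figure D5:**
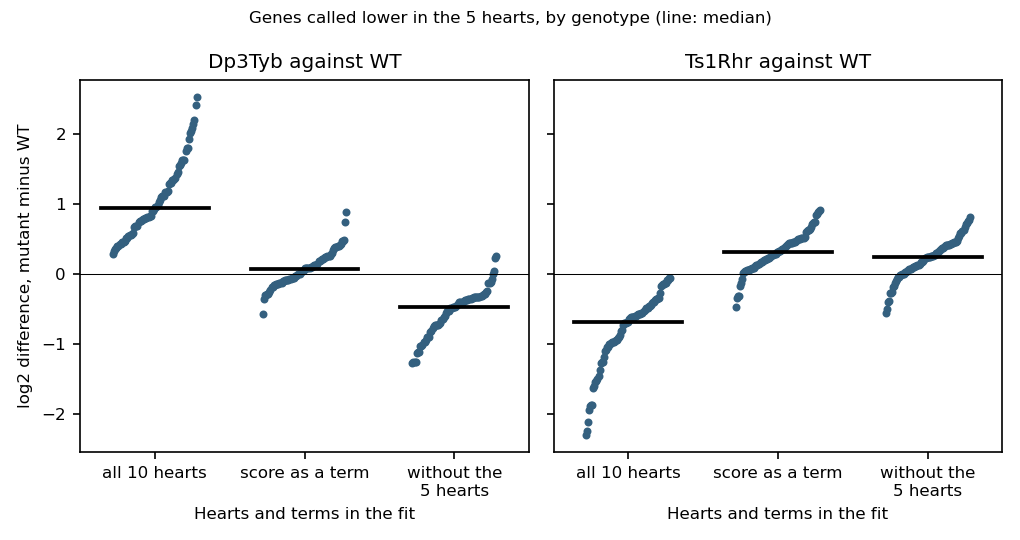
The log2 difference between mutant and WT hearts of the genes called lower in the 5 hearts, for Dp3Tyb (left, 76 genes) and for Ts1Rhr (right, 83 genes), with all 10 hearts, with the score as a term and without the 5 hearts of lowest score. The black lines are medians, at 0.94, 0.07 and -0.47 on the left and at -0.68, 0.32 and 0.25 on the right.

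With the score as a term in the fit, the median of these genes was 0.07 in the Dp3Tyb comparison and 0.32 in the Ts1Rhr comparison. Without the 5 hearts it was -0.47 and 0.25. No p is given for these genes in these fits, since the score chose them. The median over all genes was near 0 in both strains (-0.00268 and -0.00163). The genes were chosen for being low in these 5 hearts, and only 2 WT hearts then remained in the Dp3Tyb cohort. The cause of the change in the medians was not tested.

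Sim2, a transcription factor gene inside both duplicated stretches (chromosome 16, 94085104 to 94127032), was among the 87. It read 5.33, 0.748, 0, 1.20 and 0 in the low hearts and 7.66 to 52.8 (median 29.2) in the other 15, a log2 difference of -4.03 ± 0.46. The highest of the 5 values was in a Ts1Rhr heart, which carries 3 copies. In the Dp3Tyb comparison its difference was 2.42 ± 1.06 (limma), 0.75 ± 0.39 with the score as a term and -0.35 ± 0.59 without the low hearts. In the Ts1Rhr comparison the same fits gave -0.99 ± 0.78, 0.46 ± 0.46 and 0.39 ± 0.39. No p is given for Sim2 in these fits, since the score chose it.

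Tmprss2, an epithelial protease gene of the Dp3Tyb duplication, read 0, 0, 0, 1.20 and 2.94 in the low hearts and 2.93 to 21.2 in the others. Its Dp3Tyb difference was 1.72 ± 0.80, then 0.52 ± 0.40 and -0.21 ± 0.40 in the 3 fits, and it did not pass the filter in the Ts1Rhr cohort. Ripk4, a kinase gene of epidermal differentiation, did not follow the score, at 35.2 to 89.8 in the 5 and 31.5 to 128 in the others. Its Dp3Tyb difference of 0.85 ± 0.27 was 0.63 ± 0.27 with the score and 0.54 ± 0.35 without the low hearts, and it was not called in any of the 3.

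The genes called between genotypes were otherwise not genes of the score. Bace2, Brwd1, C2cd2, Cbr1, Ets2, Hlcs and Zbtb21, all of the duplicated stretch, were higher and Ky, a muscle gene, was lower in Dp3Tyb hearts by limma. With the score as a term only Bace2 was called, at 0.75 ± 0.08 against 0.75 ± 0.07 without the term. The differences of the other 6 higher genes stayed within 0.02 of their first values, for example C2cd2 at 0.76 in both fits, and their SEs widened. Ky went from -1.21 ± 0.17 to -1.08 ± 0.18. In Ts1Rhr hearts Bace2, Brwd1, Hlcs and Hmgn1 were higher, and 0 genes were called with the term (496 at an unadjusted p under 0.05), where Bace2 stood at 0.76 ± 0.10 against 0.79 ± 0.08.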

How the data were processed

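Poly(A) libraries from 20 E13.5 hearts were sequenced on an Illumina instrument. The submitters' processing notes name Trimmomatic 0.36, STAR 2.5.2a, RSEM 1.2.31, DESeq2 and the GRCm38 build. The authors deposited 1 table of 48795 Ensembl genes in 20 columns as a signal, reads divided by a size factor for each library. All values (100%) were whole multiples of 1 read within 0.001, so whole reads were recovered for depth and for the count tests, in which edgeR called 9 and 4 genes and DESeq2 34 and 25 between genotypes.

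Values were analysed as log2(value + 1) with limma 3.58.1 (R 4.3.3), on genes of at least 10 in at least 5 libraries. Differences between the 5 hearts and the other 15 carry the 4 groups as terms, with moderated SEs and no p-value. Genotype comparisons used limma with Benjamini-Hochberg adjustment within each cohort of 10, because the values are not counts, with edgeR 4.0.16 and DESeq2 1.42.0 on recovered reads as alternatives. Each fit was first tested on simulated data. Symbols came from GENCODE release 39 (91.3% of genes), coordinates and promoters from RefSeq. WT labels end in an initial, d or t, which was taken to mean littermates of that strain.

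The members, lists and naming rule were chosen with earlier results of these data known. Named were the 4 measured members of each list with the largest difference, the 15 called genes in no list of largest difference, 3 triplicated genes, and genes whose genotype call changed with the score. Further list members and genes were named after their values were seen. Alternatives were the pseudocount, filter, score genes, number of low hearts, scaling, thinned reads, a mitochondrial term and each library left out. Some genes that the naming rule gives are not reported here. A planned permutation test of the score between genotypes is not given, because the score chose the hearts.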

Additional observations from a re-analysis of the deposited data

Results flagged for a closer look

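In the 4 groups of 5 hearts, the 5-gene score and the mean log2 level of 19 gene lists gave 80 sets of values, of which 6 held a heart far from its group, where chance alone flags about 1 in 20, or 4. Dp3Tyb replicate 4 accounted for 4 of the 6. It stood at 7.51 for the branching signals (others 6.76 to 6.95), at 5.95 for the oesophagus and trachea basal genes (2.85 to 3.70), at 8.25 for cartilage (7.68 to 7.83) and at 13.4 for the cardiomyocyte genes, below the 13.8 of each other Dp3Tyb heart. It also had the highest 5-gene score. WT replicate 2 of the Ts1Rhr cohort was low for the epithelial junction genes at 5.87 (others 6.29 to 6.40). Ts1Rhr replicate 1, a heart of low score, was low for the macrophage genes at 6.63 (others 7.11 to 7.28).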

How the results depend on the processing

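The count of 87 genes lower in the 5 hearts moved by over 1.5 times with 7 choices. It was 23 with the 4 lowest hearts (9 shared with the 87) and 54 with the 6 lowest (38 shared), both of which place a heart on the other side of the gap. It was 52 of 13824 with reads thinned to the shallowest library (45 shared), where fewer genes were measured, and 57 at a log2 limit of 2. Chosen after seeing the data, the Dp3Tyb cohort alone gave 145 and the Ts1Rhr cohort alone 196, with 1 and 5 genes higher, and leaving out the libraries over 10% mitochondrial reads gave 171 (85 shared). These last fits hold fewer hearts. Leaving out each heart in turn gave 84 to 114, and 83 of the 87 held in all 20 such fits. Pseudocount, filter, scaling, edgeR, the score without Tbx4, the mitochondrial term and no genotype term gave 83 to 92.

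Of 665 alternative values for 19 list medians, 636 moved by less than the spread and 29 by more. With thinned reads the lung endoderm factors went to 0.01 and skeletal muscle to 0.37. With the 4 lowest hearts the Hox genes went to -1.28 and the branching signals to -0.16. Without the filter the Hox genes went to -1.08, the epithelial junction genes to -0.59 and the lung endoderm factors to -0.57. The triplicated genes ran from -1.63 with a pseudocount of 5 to -4.31 with edgeR. The cause was not tested.

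Genotype calls for Dp3Tyb went from 8 to 1 with the score as a term, 0 without the low hearts (266 at an unadjusted p under 0.05), 4 without the filter, 34 with DESeq2 and 2 to 13 with a heart left out. For Ts1Rhr they went from 4 to 0, 0 (508 at an unadjusted p under 0.05) and 25 with DESeq2, and 1 to 6 with a heart left out. The cause was not tested, beyond the smaller number of hearts or degrees of freedom. The mean score of mutant minus WT hearts kept its sign in both strains under every alternative, and its difference between strains ran from 2.87 to 4.34 with a heart left out. Over the surfactant and epithelial lists in place of the 5 genes it shrank to 0.549, with 0.328 in Dp3Tyb and -0.221 in Ts1Rhr, against 3.63, 1.70 and -1.93. No paired analysis was made, because the labels name no litter or pair and replicate numbers were given in accession order. The depth of WT replicate 5 of the Dp3Tyb cohort, where 1 read is a value of 2.94, limits what a 0 there can show.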
